A study of Rattus norvegicus with 2 samples.

Results

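The miRNAs miR-140 and miR-455 were followed in the small RNA of exosomes, the vesicles that cultured cells release into their medium. The members were all names in the count table made of miR-140 or miR-455 and any arm. This gave 3 rows of 635, listed as mmu-miR-140-3p, mmu-miR-140-5p and mmu-miR-455-3p. No row carried the other name searched for, mmu-miR-455-5p, which is therefore not analysed here. The members were chosen by name, but with their read ratios between the libraries already known, so these ratios are given below as a description and are not tested.

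A miRNA gene is transcribed as a hairpin that is cut into a short duplex, and either strand, called the 5p or the 3p arm by its side of the hairpin, can be loaded into an Argonaute protein. Bases 2 to 8 of the loaded strand, the seed, lead in the recognition of target mRNAs. Both miR-140 and miR-455 are best known from cartilage. SOX9, the transcription factor that drives chondrocyte differentiation, promotes the expression of both, and each gene lies in an intron of a host gene. The host of miR-140 is Wwp2, which encodes a ubiquitin ligase, and that of miR-455 is Col27a1, which encodes a fibrillar collagen chain. Both miRNAs are also found in other mesenchymal cells.

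NC-Exo, the exosomes of normal cardiomyocytes, came from primary heart cells of neonatal Wistar rats aged 1 to 2 days that received no angiotensin II (Ang II). HC-Exo came from the same kind of culture treated with 1 μmol/L Ang II, a peptide hormone used to induce hypertrophy. Both cultures had been enriched for cardiomyocytes by differential adhesion for 60 min, plated with 0.1 mM bromodeoxyuridine, serum-starved for 24 h and then kept for 48 h with or without Ang II. The cells were thus enriched and not sorted. Each group is 1 library, and the differences below therefore have no replicate check. The number of rats or cultures behind each library is not given in the sources used here.

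The miRNA counts summed to 102608 reads for NC-Exo and to 133155 for HC-Exo. A single read therefore stood for 9.75 reads per 1000000 miRNA reads (RPM) in the first and for 7.51 RPM in the second. Some rows carried identical counts, such as miR-486a-5p and miR-486b-5p with 654 and 875 reads each. The totals can thus hold a read under more than 1 name. Of the markers of cardiomyocytes, 6 of 6 were listed in the table, with a summed level of 168817 RPM in NC-Exo and 183898 RPM in HC-Exo. Most of this sum was miR-1a-3p alone, with 161917 RPM in NC-Exo and 174766 RPM in HC-Exo. All intervals given are 95% intervals and cover counting error only. They take each read as independent, while PCR can copy 1 molecule into several reads, so they can be too narrow. Where the intervals of the 2 libraries overlap, this overlap does not measure the difference between them.

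The reference mature sequences of the 3 rows are shown because the seed leads in the recognition of target mRNAs. They are rat sequences from RefSeq (build GRCr8), 5′ to 3′, with the seed in capitals. The table names miRNAs with the mouse prefix, so the sequences were matched by name. The sequences of the counted reads were not seen, and a read with a shifted 5′ end would have another seed.
miR-140-3p: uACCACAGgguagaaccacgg
miR-140-5p: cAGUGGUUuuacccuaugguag
miR-455-3p: gCAGUCCAcgggcauauacacu

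The 3 seeds differed from each other, and none was shared with another mature miRNA among the 693 names of the rat table. The arms were 21 to 22 bases long. Only miR-140-3p starts with U, as 36.2% of the rat mature miRNAs do.

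The hairpins are shown with the arms that have a rat mature entry in capitals, so that the place of each counted arm can be seen. Mir140 lies at chr19:52375293-52375391 on the plus strand of GRCr8, within the span of Wwp2. Its 5p arm takes bases 22 to 43 of the hairpin and its 3p arm bases 61 to 81. Mir455 lies at chr5:81704834-81704911 on the plus strand, within the span of Col27a1, and its 3p arm takes bases 48 to 69. The RefSeq gene list had 0 other miRNA genes within 25 kb of either hairpin.
Mir140: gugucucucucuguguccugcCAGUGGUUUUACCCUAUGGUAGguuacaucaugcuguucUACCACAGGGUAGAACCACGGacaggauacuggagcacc
Mir455: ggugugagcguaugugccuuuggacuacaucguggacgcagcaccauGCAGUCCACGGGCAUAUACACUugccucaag

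The miR-140-3p arm was the most abundant of the 3 rows in both libraries. It had 56 reads in NC-Exo, which is 546 RPM (95% exact interval 412 to 709), and 69 reads in HC-Exo, which is 518 RPM (403 to 656). The 2 measured levels were thus close, while the interval of their ratio, HC-Exo over NC-Exo, ran from 0.658 to 1.38. By reads it ranked 119 of 635 in NC-Exo and 123 of 635 in HC-Exo.

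The other arm, miR-140-5p, is the one best studied in cartilage, where it represses the aggrecan-cleaving protease ADAMTS5. It had 6 reads in NC-Exo, 58.5 RPM (21.5 to 127), and 23 reads in HC-Exo, 173 RPM (109.5 to 259). Its level was higher in HC-Exo, and the intervals of the libraries overlapped. It ranked 300 in NC-Exo, in a tie of 18 miRNAs with 6 reads, and 217 in HC-Exo.

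The only listed arm of miR-455, miR-455-3p, had 6 reads in NC-Exo as well, 58.5 RPM (21.5 to 127), and 25 reads in HC-Exo, 188 RPM (122 to 277). Its values were close to those of miR-140-5p, and the intervals of the libraries overlapped between 122 and 127 RPM. It ranked 300 in NC-Exo and 206 in HC-Exo.

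**Figure D1:**
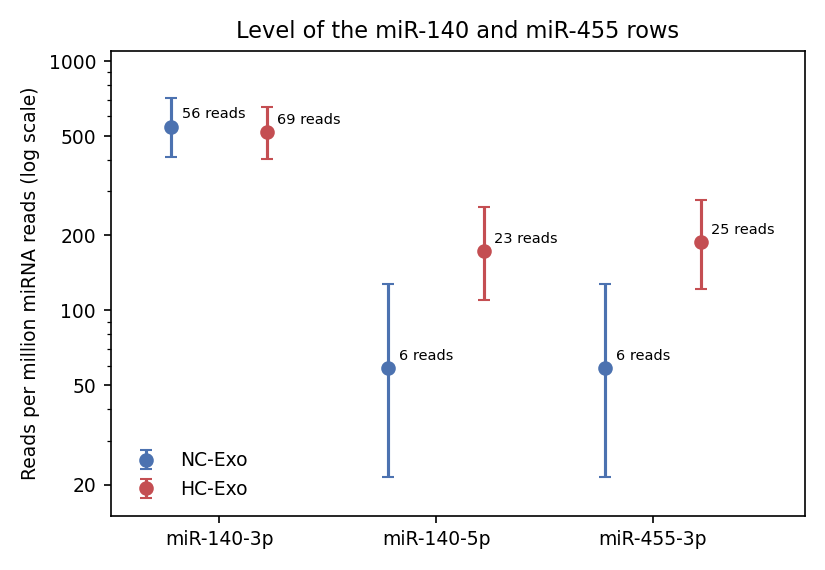
Level of miR-140-3p, miR-140-5p and miR-455-3p in reads per 1000000 miRNA reads (vertical log axis) in NC-Exo (blue) and HC-Exo (red). Points are 1 library each and bars are 95% exact intervals of counting error, with the reads beside each point. The points of miR-140-3p stand at 546 and 518, while those of miR-140-5p and miR-455-3p stand at 58.5 in NC-Exo and at 173 and 188 in HC-Exo.

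Within NC-Exo, the order of levels was miR-140-3p first, and then miR-140-5p and miR-455-3p with the same 6 reads. The reads of miR-140-3p were 9.33 times those of either (exact interval 4.03 to 26.5). Within HC-Exo the order was miR-140-3p, miR-455-3p and miR-140-5p. There miR-140-3p had 3 times the reads of miR-140-5p (1.85 to 5.04) and 2.76 times those of miR-455-3p (1.72 to 4.55). The last 2 in the order, miR-455-3p and miR-140-5p, had a ratio of 1.09 in HC-Exo (0.592 to 2.0), so they could not be ordered at this depth.

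The ratio of HC-Exo over NC-Exo compared the exosomes of Ang II-treated cells with those of untreated cells. For miR-455-3p the RPM ratio was 3.21, a log2 ratio of 1.68 (95% exact interval 0.36 to 3.26). For miR-140-5p it was 2.95, a log2 ratio of 1.56 (0.23 to 3.15). For miR-140-3p it was 0.949, a log2 ratio of -0.07 (-0.60 to 0.46). The interval of miR-140-3p held 0, whereas those of the other 2 lay above it by a small margin. As the members were chosen with these ratios known, the place of an interval beside 0 is not a test. With both arms of miR-140 summed, the 62 reads of NC-Exo and the 92 of HC-Exo gave 0.19 on the log2 scale (-0.29 to 0.68).

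These ratios were set beside those of all 340 miRNAs that had 10 or more reads when both libraries were added. The 340 had a median log2 ratio of 0.10, with quartiles of -0.27 and 0.53. A log2 ratio of at least 1, that is at least 2-fold higher in HC-Exo, was seen in 39 of them (11.5%), including 2 of the 3 rows, miR-140-5p and miR-455-3p. A log2 ratio of -1 or lower was seen in 14 (4.12%), with 0 of the 3 rows among them. By log2 ratio miR-455-3p had place 6 of 340, miR-140-5p place 12 and miR-140-3p place 201. Because the members were chosen with this contrast in view, nothing is read from these places.

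Ratios of this size were mostly those of rarely counted miRNAs. Among the 192 miRNAs with 50 or more reads in the sum of the libraries, 5 (2.60%) had a log2 ratio of at least 1. Over both libraries, miR-140-5p had 29 reads and miR-455-3p 31, so they are not among these 192, and miR-140-3p with 125 reads is. The plot of ratio against reads shows this widening toward few reads.

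**Figure D2:**
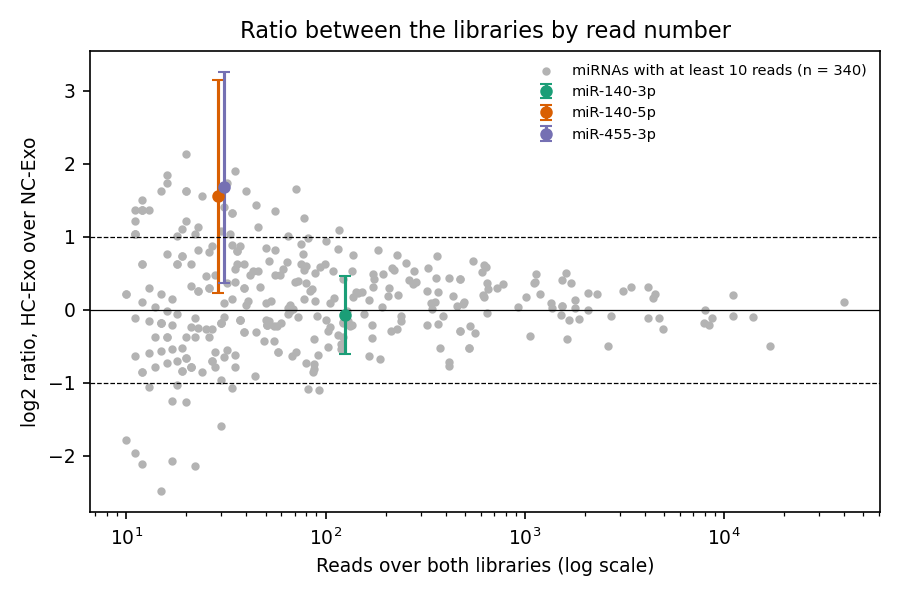
Log2 ratio of HC-Exo to NC-Exo (vertical axis) against reads over both libraries (horizontal log axis) for 340 miRNAs (grey) and the 3 rows in colour, with 95% exact intervals of counting error. A library with fewer than 3 reads was set at 3 reads, and dashed lines mark log2 ratios of 1 and -1. At 29 and 31 reads, miR-140-5p and miR-455-3p lie above the upper line with intervals that cross it, and miR-140-3p lies near 0.

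The 3 rows were then compared in pairs by the difference of their log2 ratios, for which the scaling of the libraries cancels. The log2 ratio of miR-140-5p was 1.64 above that of miR-140-3p, its partner from the same hairpin (exact conditional interval 0.17 to 3.31). That of miR-455-3p was 1.76 above that of miR-140-3p (0.30 to 3.42). Between miR-455-3p and miR-140-5p the difference was 0.12 (-2.0 to 2.24), so that their ratios could differ by a factor from 0.250 to 4.71 within counting error. Against the summed arms of miR-140, that of miR-455-3p was 1.49 higher (0.06 to 3.14).

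Arm balance could be followed in miR-140, whose 2 mature arms are capitalised in the hairpin above. In NC-Exo the 3p arm held 56 of 62 reads, 90.3% (Clopper-Pearson interval 80.1 to 96.4%). In HC-Exo it held 69 of 92 reads, 75% (64.9 to 83.4%). The 3p arm was thus the major arm in both libraries, and the 5p arm went from 9.68% to 25% of the hairpin's reads. The 3p share was 15.3 percentage points lower in HC-Exo, while the intervals of the libraries overlapped between 80.1 and 83.4%. This shift comes from the same reads as the difference of 1.64 (0.17 to 3.31) between the log2 ratios of the arms, and is not a separate result.

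Both arms were listed for 160 of the 403 hairpin names with an arm in the table, and 124 of these had at least 10 reads over both arms in each library. Arms were paired by exact name. A miRNA with a gene number in the name of 1 arm only, such as miR-24-3p with miR-24-2-5p, is thus not among the 160. The major arm was the same in both libraries for 118 of the 124. The 3p arm was the major one in both for 72, miR-140 among them, and the 5p arm for 46. In NC-Exo 75 hairpins had a lower 3p share than miR-140 and 48 a higher one, and in HC-Exo 60 had a lower and 63 a higher one. In the order of 3p shares in HC-Exo, miR-345 and miR-1981 came next below miR-140, with 72.2% each, and miR-30e next above, with 75.5%.

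The median shift of the 3p share between the libraries was 3.27 points in either direction over the 124 hairpins, against the 15.3 points of miR-140. A shift at least as large was seen in 12 of the other 123. Of the 73 hairpins with at least 50 reads in each library, 1 other hairpin had one, miR-877, which was named after its values were seen. Its 3p share was 15.6% in NC-Exo against 32.9% in HC-Exo, so its shift went toward the 3p arm, opposite to that of miR-140. On the log2 scale of 5p over 3p reads, with 0.5 reads added to each arm, miR-140 shifted by 1.56 toward the 5p arm, and 38 of the other 123 shifted by at least as much in either direction. Among the 95 other hairpins with reads in both arms and both libraries, where no arm is at 0, 11 did.

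**Figure D3:**
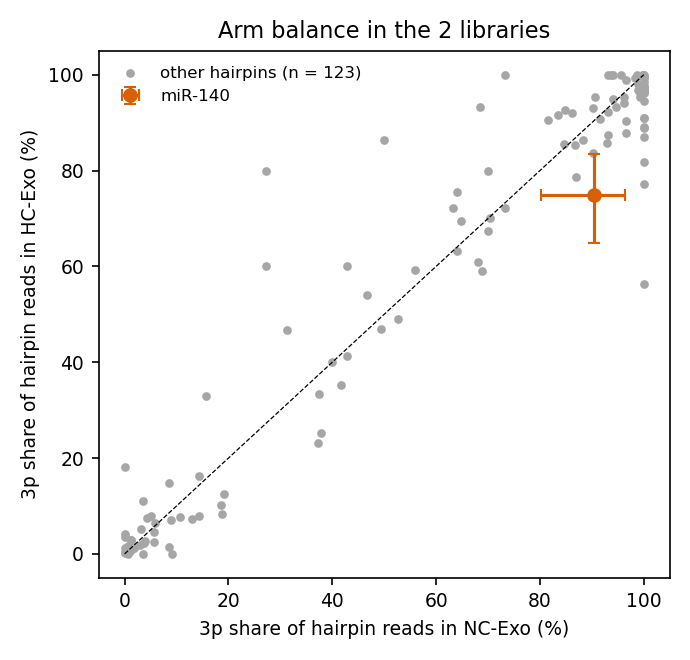
Share of each hairpin's reads on its 3p arm in NC-Exo (horizontal axis, %) and HC-Exo (vertical axis, %) for 123 hairpins (grey) and miR-140 (orange, with 95% Clopper-Pearson intervals). The dashed line marks equal shares, and miR-140 lies below it at 90.3% in NC-Exo and 75% in HC-Exo.

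For miR-455 no arm balance could be computed, since only its 3p arm was listed. Paired by exact name, 243 hairpin names in the table had 1 arm listed, 132 of them the 3p arm. Of the 243, 71 had at least the 31 reads of miR-455-3p over both libraries. Both counts include names split by a gene number, such as those of miR-24-3p and miR-24-2-5p. They are thus not counts of hairpins that lack an arm. Every listed name had at least 1 read in either library, so the table does not say how the unlisted arm was counted.

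The miRNAs with values most like each row were found by the distance of their log2 RPM in the 2 libraries, over the 449 miRNAs with reads in both. The nearest to miR-140-5p was miR-455-3p, at a distance of 0.12, followed at 0.18 by miR-337-3p, which had 6 and 26 reads. The nearest to miR-455-3p was the same miR-337-3p, at 0.06, followed by miR-140-5p. Low whole counts make such matches common, as 18 miRNAs had 6 reads in NC-Exo. The nearest to miR-140-3p were miR-669p-3p, with 56 and 72 reads, and the cardiac muscle miRNA miR-208b-3p, with 57 and 66 reads, both with log2 ratios close to 0 (-0.01 and -0.16).

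Other miRNAs linked to SOX9, chondrocytes or cartilage matrix were taken as a list of 11 names, of which 9 were in the table and 7 had at least 10 reads. Of the 7, 0 had a log2 ratio of at least 1 and 0 of -1 or lower, beside 11.5% and 4.12% of all 340. Their median was 0.02, beside 0.10 for all 340, and its sign depended on the scaling, with -0.01 to -0.10 under 4 other scalings. For miR-145a-5p, which represses SOX9, 768 and 1011 reads gave a log2 ratio of 0.02 (-0.12 to 0.16). For miR-27b-3p, which targets the collagenase MMP13 in chondrocytes, 215 and 420 reads gave the highest of the 7, 0.59 (0.35 to 0.83). The lowest was that of miR-101a-3p and miR-101b-3p, -0.79 (-2.22 to 0.58), which were listed with the same 12 and 9 reads. The arms of miR-675, a miRNA within the H19 transcript, had 1 and 0 reads (5p) and 3 and 6 reads (3p).

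A list of 15 miRNAs of fibroblasts and smooth muscle, cells that a neonatal heart culture can also hold, was in the table in full. Their summed level was 59567 RPM in NC-Exo and 63926 RPM in HC-Exo, and miR-214-5p and miR-21a-3p were at 0 reads in NC-Exo. The list shares miR-145a-5p and miR-199a-3p with the cartilage-linked list. It also holds miR-199a-3p and miR-199b-3p with the same 174 and 301 reads, which both enter its sum and median. Of the 12 with at least 10 reads, 3 had a log2 ratio of at least 1 and 0 of -1 or lower, beside 11.5% and 4.12% of all 340, with a median of 0.38 beside 0.10. The 3 were miR-199b-5p with 1.35 (0.43 to 2.37), miR-199a-5p with 1.26 (0.49 to 2.09) and miR-29b-3p, which represses collagen mRNAs, with 1.01 (0.20 to 1.88). The last was under 1 with each of the 4 other scalings. The ratios of the abundant members were smaller, as for miR-143-3p of smooth muscle with 0.31 and miR-21a-5p with 0.16, and miR-214-3p had -0.49. The part of such cells in the levels of miR-140-5p and miR-455-3p was not tested, and more cells of a type cannot be told apart from more RNA per cell or per exosome in these data.

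Of the 6 cardiomyocyte markers, 2 had a log2 ratio of at least 1, beside 11.5% of all 340, and the median was 0.43 beside 0.10. These were miR-499-5p with 1.43 (0.39 to 2.61) and miR-208a-3p with 1.04 (-0.12 to 2.33), which had 10 and 9 reads in NC-Exo. The ratio of miR-208a-3p was under 1 with 3 of the 4 other scalings. The most abundant marker, miR-1a-3p with 16614 and 23271 reads, had a log2 ratio of 0.11 (0.08 to 0.14), and miR-208b-3p had -0.16. The 2 endothelial markers were the arms of miR-126a and differed in sign, with 0.21 (0.04 to 0.38) for miR-126a-3p and -0.49 (-0.54 to -0.45) for miR-126a-5p. They had a summed level of 91114 RPM in NC-Exo and 66817 RPM in HC-Exo. Of 7 names of blood cell miRNAs 6 were listed, all but miR-144-3p. The 5 with at least 10 reads all had log2 ratios above 0, with a median of 0.56 beside 0.10. Of these, 0 were past either limit, beside 11.5% higher and 4.12% lower of all 340, and so few rows can show little here. The summed level of the 6 was 7904 RPM in NC-Exo and 8554 RPM in HC-Exo.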

How the data were processed

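The authors deposited raw read counts per mature miRNA name, and these counts were the only input. Bowtie2 and the builds mm9 and GRCm38 are named in the submitters' processing notes without a role, and the trimming, the mismatches allowed and the treatment of shifted ends are not given in the sources used here. Rat reads counted under mouse names can be lost where the sequences differ, and adapter ligation favours some sequences, so levels of different miRNAs are less comparable than 1 miRNA between libraries. The authors' normalized values and their own comparison (fold changes, p-values and q-values) were not used.

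Counts were divided by the library totals, 102608 and 133155, to give RPM. With 1 library per condition no test was made. Intervals of ratios come from the exact binomial share of HC-Exo reads, those of differences from the exact conditional odds ratio, and those of levels and arm shares are Clopper-Pearson intervals. The limit was a log2 ratio of 1 in size, for miRNAs whose summed reads reached 10, and a library with fewer than 3 reads was set at 3. The interval script was tested on simulated data that held counting error alone. That test does not cover PCR copies or differences between replicate libraries. Named miRNAs were the members, the 2 nearest to each by level, the neighbours of miR-140 by 3p share in HC-Exo, and members of the lists past the limit. Other list members were named after their values were seen. The members and lists were chosen with earlier results of these data known. Of the 635 names, 312 matched a rat mature name in RefSeq, 3 of the 4 searched for among them. Python 3.11.15, scipy 1.17.1, numpy 2.4.6 and pandas 2.3.3 were used, with edgeR 4.0.16 and DESeq2 1.42.0 in R 4.3.3 for the scalings alone.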

Additional observations from a re-analysis of the deposited data

How the results depend on the processing

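No paired analysis was possible because each group holds a single library, which also leaves no replicate to drop. Of 101 values under alternatives, 83 stayed within counting error or within 1.5 times the count. For list medians the interval of the median was used instead. For percentages of hairpins it was a binomial interval over the hairpins, which is not counting error of reads. No log2 ratio of a row and no difference between rows changed sign, while the median of the cartilage-linked list, 0.02, was -0.01 to -0.10 under the 4 other scalings. For the rows, the scalings could not change a sign, as their shifts were small beside the ratios or went the same way. Scaling cancels in the differences, for which only the 2 pseudocounts were tried. Under 4 other scalings, which shifted log2 ratios by -0.03 to -0.12, and 2 pseudocounts, the log2 ratio was 0.97 to 1.53 for miR-140-5p, 1.07 to 1.65 for miR-455-3p and -0.20 to -0.08 for miR-140-3p. The lowest values of miR-140-5p and miR-455-3p came with a pseudocount of 5 reads, which left 1 row, miR-455-3p, at a log2 ratio of at least 1.

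Totals without the 10 most abundant miRNAs raised all levels, to 1277 (NC-Exo) and 1134 RPM (HC-Exo) for miR-140-3p, 136.8 and 378 for miR-140-5p and 136.8 and 411 for miR-455-3p, by construction. With at least 10 reads in each library 7 miRNAs were past the limit higher and 3 lower, with at least 50 reads over both 5 and 2, and with a limit of 1.5 on the log2 ratio 13 and 7. The 2 filters leave out miR-140-5p and miR-455-3p. Without a filter 24 were lower. Upper-quartile scaling changed the share of higher ones among those past the limit from 73.6% to 64.4%, and no filter to 62.5%. Among hairpins with reads in both arms and both libraries, 77.9% had a lower 3p share than miR-140 in NC-Exo and 60.0% in HC-Exo, against 61.0% and 48.8%. The percentage of hairpins with a shift at least that of miR-140 was 9.76%, and 1.39% with at least 50 reads in each library. For the shift on the log2 scale it was 30.9%, and 11.6% among hairpins with reads in both arms and both libraries. The 6 reads of miR-140-5p and of miR-455-3p in NC-Exo limit the precision of their ratios.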
